A study of Homo sapiens with 41 samples.

Results

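FGF1, the gene of acidic fibroblast growth factor, was followed through every deposited peak list of a chromatin study in MDA-MB-231 cells, an established human line from a triple-negative carcinoma of the breast, one without hormone receptors or HER2 amplification. The gene was 1 of 19974 protein-coding genes considered. It was chosen by its ATAC values: within 1 kb of its first start, peaks were called as gained with the HDAC6 inhibitor Nexturastat A (NextA) and lost with shHDAC6. The ATAC comparisons below are therefore descriptions and carry no test. The values did not show a peak that appeared or disappeared: the same ATAC peak before the first start was listed in 12 of 12 ATAC lists. What differed was whether a called interval reached into the 1 kb window: in NextA lists and 2 shCtrl lists by the edge of that peak, and in 1 shCtrl list by a separate small interval.

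The ATAC groups were NextA (5 µM for 2 days, 3 lists), Ctrl (no inhibitor, 3 lists), shHDAC6 (a hairpin against HDAC6, 3 lists) and shCtrl (a control hairpin, 3 lists). ATAC-seq marks open chromatin by where a transposase can insert. RNA polymerase II (PolII) was mapped by ChIP with an antibody to the tail of Rpb1, its largest subunit, in the same 4 groups, 2 lists each. Pan-acetyl ChIP with an antibody to histone H3 acetylated at any of several lysines covered NextA and Ctrl, 2 lists each. HDAC6 itself was mapped by ChIP in NextA, shHDAC6 and Ctrl cells, 2 lists each, and by CUT&Tag in 2 Ctrl samples. Of 41 samples, these 32 lists were used and 9 samples were not analysed here. All samples came from 1 cell line, and the labels do not say that replicates were separate cultures or which hairpin clone or pool was used; the level of HDAC6 left after knockdown was not analysed here. The lists hold called peaks without read counts, so sequencing depth is unknown, and a missing interval means only that no peak was listed.

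Fibroblast growth factors are secreted ligands that bind receptor tyrosine kinases of the FGFR family together with heparan sulfate. Receptor activation signals through the adaptor FRS2 to the MAP kinase pathway, which induces its own inhibitors of the Sprouty and DUSP families. FGF1 binds all of the main FGF receptors, lacks a classical signal peptide, and is transcribed from several alternative promoters that serve different tissues. HDAC6 removes acetyl groups mainly from proteins of the cytoplasm, tubulin above all.

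FGF1 lies on chromosome 5 on the minus strand, at chr5:142592178-142698070 in GRCh38 (105893 bp). With 10 kb on each side the locus covered chr5:142582178-142708070 (125893 bp). RefSeq gives 4 starts, here numbered in the direction of transcription. The first is at base 142698070, the second lies 49 bp downstream of it, the third lies 11980 bp downstream and the fourth lies 53831 bp downstream. The DNA around the first and the fourth start is shown because every ATAC peak near a start in more than 1 list belonged to one of these. Each run covers 250 bases before to 50 after the start, minus strand, from RefSeq (GRCh38.p14), at chr5:142698021-142698320 for the first and chr5:142644190-142644489 for the fourth. Capitals mark motif matches on either strand.
FGF1 start 1: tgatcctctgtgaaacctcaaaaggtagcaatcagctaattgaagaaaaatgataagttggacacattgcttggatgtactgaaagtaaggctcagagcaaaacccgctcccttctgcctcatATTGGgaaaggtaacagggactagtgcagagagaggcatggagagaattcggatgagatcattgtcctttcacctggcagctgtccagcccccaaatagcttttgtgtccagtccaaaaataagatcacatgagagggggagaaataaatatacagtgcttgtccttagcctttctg
FGF1 start 4: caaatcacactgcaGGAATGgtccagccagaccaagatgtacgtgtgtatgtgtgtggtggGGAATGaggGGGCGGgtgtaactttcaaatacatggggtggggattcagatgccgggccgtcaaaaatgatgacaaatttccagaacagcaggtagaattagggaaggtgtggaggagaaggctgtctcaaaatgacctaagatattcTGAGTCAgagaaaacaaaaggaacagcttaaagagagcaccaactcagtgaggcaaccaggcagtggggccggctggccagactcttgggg
The capitals at the first start are ATTGG, the reverse strand of a CCAAT box, at position -127 counted from the start; of 35116 RefSeq promoters of this length, 34.6% held CCAAT on either strand. The run of the fourth start holds TGAGTCA, a match to the AP-1 motif TGANTCA that 7.71% of promoters held, at position -41. It also holds the GC box GGGCGG (45% of promoters) and, in 2 places, the TEAD motif GGAATG (14% of promoters). No other searched motif was found in either window: the E-box CACGTG, the TATA box TATAAA and the ETS motif CCGGAA were in neither, and the first also lacked the AP-1, GC box and TEAD motifs. The GC content was 44.3% around the first start and 50.3% around the fourth, against a median of 58.7% over all promoters. No ATAC list had a peak overlapping either run; the ATAC peaks lay further upstream.

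Across the locus, the 32 lists held 80 intervals, of which 63 came from ATAC lists and formed 14 merged regions. A merged region is the union of overlapping intervals of the 12 ATAC lists. The NextA lists held 23 intervals and the Ctrl lists 21. The shHDAC6 lists held 8 and the shCtrl lists 11. The locus bases covered averaged 4098 ± 416 bp in NextA and 3076 ± 1477 bp in Ctrl, and 1466 ± 203 bp in shHDAC6 and 1825 ± 777 bp in shCtrl (SD, n = 3 lists each). List lengths moved with these values: 59710 to 79666 peaks in NextA lists and 42113 to 74018 in Ctrl lists, and 25878 to 32111 in shHDAC6 lists and 28883 to 32998 in shCtrl lists. Their part in the interval counts was not tested. Of the 14 regions, 1 was in all 12 lists, 11 were in 2 to 11 lists and 2 were in 1 list.

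**Figure D1:**
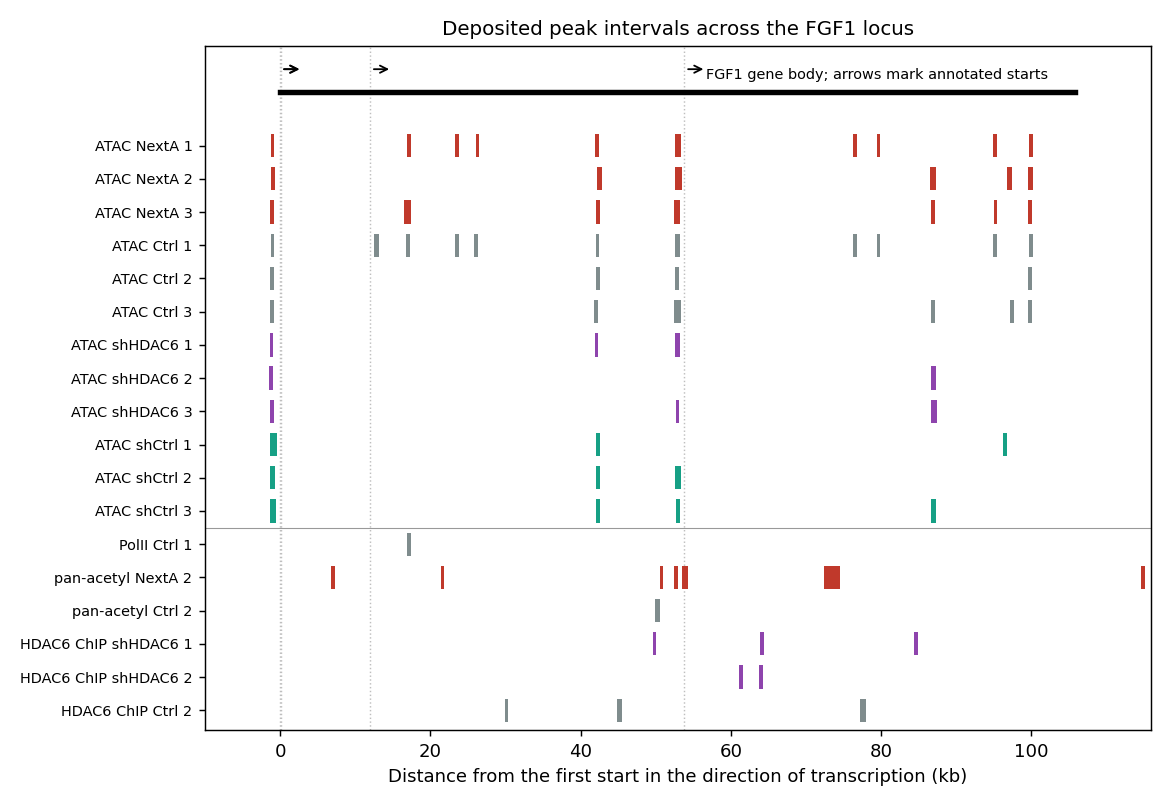
Deposited peak intervals in the FGF1 locus for the 12 ATAC lists and the 6 of 20 ChIP and CUT&Tag lists with any, against the distance from the first start in the direction of transcription (kb); colours mark the groups, bars the intervals (drawn at least 0.5 kb wide) and arrows the 4 starts. The leftmost column of bars is the peak before the first start, present in all 12 ATAC lists.

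No region of the locus was gained or lost in the sense of a peak in every list of one group and no list of the other: 0 of 14 with NextA and 0 of 14 with shHDAC6. Over all merged regions the same rule called 0.497% gained and 0.0597% lost with NextA (of 127215), and 0.342% gained and 0.957% lost with shHDAC6 (of 54420). The opposite calls arose only when promoters were scored as windows. With a window of 1 kb on each side of the outermost start, NextA gained 11 of 19974 promoters (0.0551%) and lost 9 (0.0451%). shHDAC6 gained 38 (0.19%) and lost 39 (0.195%). FGF1 was the 1 gene gained with NextA and lost with shHDAC6 (0.00501%), and 0 genes showed the reverse.

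The peak behind the calls lay at chr5:142698661-142699630, upstream of the first start. In NextA lists the edge nearest the start stood 973, 734 and 929 bp upstream of it. In Ctrl lists it stood 1029, 1001 and 1003 bp upstream. The NextA intervals therefore reached 28, 267 and 72 bp into the window, while the Ctrl intervals ended 29, 1 and 3 bp short of it.

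In shHDAC6 lists the near edge stood 1032, 1022 and 1008 bp upstream of the first start, which was 32, 22 and 8 bp short of the window. In shCtrl lists the edge of the main peak stood 1045, 736 and 591 bp upstream. In shCtrl list 1 the main peak thus began outside the window, further from the start than in any shHDAC6 list. What reached into the window there was a separate interval of 226 bp, with its near edge 666 bp and its summit 776 bp upstream, a fold of 4.5 over the caller's background and percentile 30.6 of its list. The main peak's edges did not overlap between NextA and Ctrl lists, and overlapped between shHDAC6 and shCtrl lists.

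The summit of the main peak, its highest point, lay 1164, 1162 and 1166 bp upstream of the first start in NextA lists and 1145, 1154 and 1188 bp upstream in Ctrl lists. It lay 1220, 1206 and 1189 bp upstream in shHDAC6 lists and 1186, 1201 and 1167 bp upstream in shCtrl lists. All 12 main summits lay within 75 bp of each other and outside the 1 kb window, and the groups of each comparison overlapped.

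**Figure D2:**
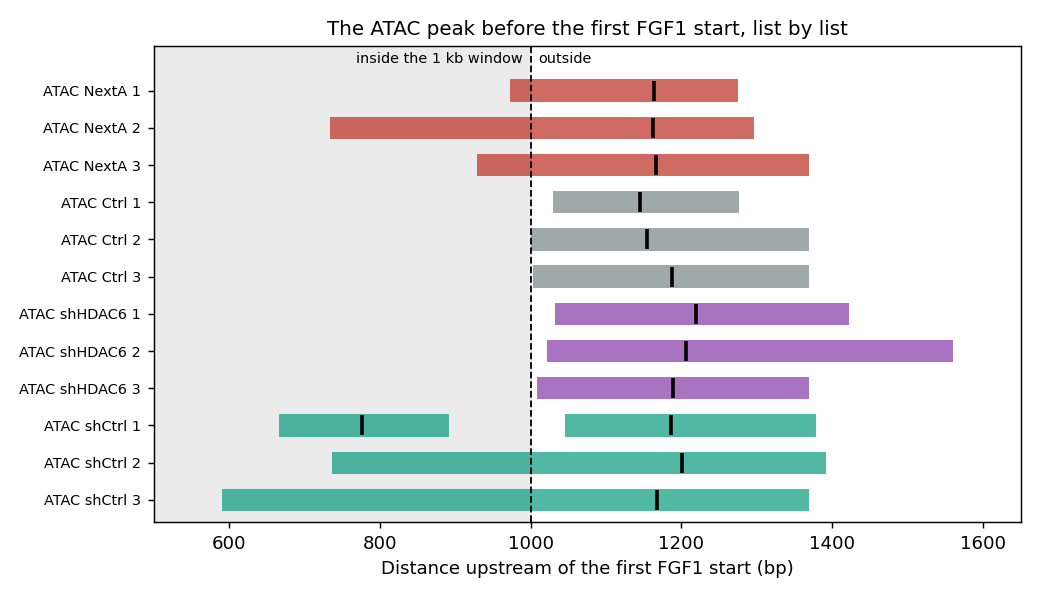
The ATAC intervals before the first FGF1 start in each of 12 lists, by distance upstream of the start (bp); bars are the called intervals, black ticks the summits, and the dashed line the limit of the 1 kb window (grey inside). Bars of the NextA and shCtrl lists reach into the grey area (in shCtrl list 1 a separate short bar) and those of the Ctrl and shHDAC6 lists end outside it, while the 12 main summits line up between 1145 and 1220 bp.

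The authors' fold of the main peak over the caller's background was 10.1, 8.64 and 10.5 in NextA lists and 11.2, 7.86 and 8.75 in Ctrl lists. It was 7.77, 6.55 and 7.98 in shHDAC6 lists and 8.91, 7.5 and 5.95 in shCtrl lists. The values of both comparisons overlapped. Each fold is the authors' value for a peak of that list, and ranks or percentiles from lists of different length show no change between groups; the places below are descriptions within each list.

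By fold the NextA peaks ranked 15674 of 79666, 10747 of 62732 and 4353 of 59710, and the Ctrl peaks 12418 of 74018, 9161 of 42113 and 6506 of 44453. As a percentile of the list, with the strongest peak near 100, this placed the peak at 85.3 ± 6.52 in NextA lists and 82.2 ± 3.66 in Ctrl lists (SD, n = 3 each). In shHDAC6 lists the ranks were 5999 of 32111, 7824 of 25878 and 4508 of 28677, and in shCtrl lists 2608 of 32878, 5951 of 32998 and 10796 of 28883. The percentiles averaged 78.4 ± 7.69 in shHDAC6 lists and 78.8 ± 15.0 in shCtrl lists. The percentiles overlapped in both comparisons. It was the 1 region of the locus present in all 12 lists; 8% of the 139237 merged ATAC regions of the 12 lists were in all of them.

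The gained call with NextA held for windows reaching 973 to 1000 bp from the start, a span of 28 widths. The lost call with shHDAC6 held from 736 to 1007 bp, a span of 272 widths. Both held together only from 973 to 1000 bp. At 500 bp no ATAC list had a peak in the window, and at 1500 bp and above all 12 lists had one. The second start, 49 bp further downstream, had a peak within 1 kb in 2 NextA and 0 Ctrl lists, and in 0 shHDAC6 and 3 shCtrl lists, so only the first start gave both calls.

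**Figure D3:**
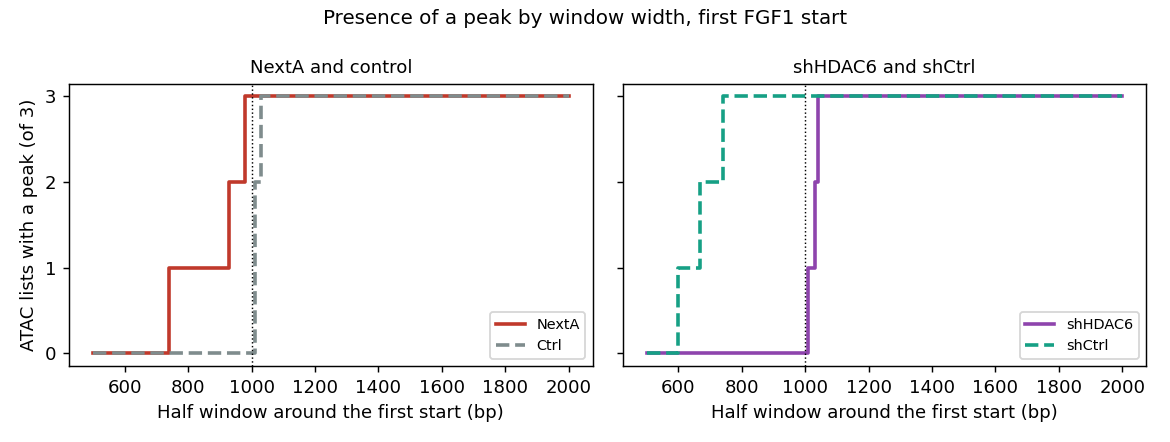
Number of ATAC lists (of 3 per group) with a peak in a window around the first FGF1 start, against the reach of the window on each side (bp, in steps of 10 bp from 500 to 2000); NextA and shHDAC6 are solid lines, Ctrl and shCtrl dashed, and the dotted line marks 1000 bp. In both panels the 2 lines meet at 0 and at 3 lists, and differ in between.

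The 2 control groups, set against each other, gave the same window call: 3 of 3 shCtrl and 0 of 3 Ctrl lists had a peak within 1 kb of the first start. Between shCtrl and Ctrl, 0.29% of promoters were gained and 1.43% lost.

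Few other promoter calls had this form. Among the 11 promoters gained with NextA, FGF1 was the 1 (9.09%) whose peak region also held a peak in the Ctrl lists. Among the 39 lost with shHDAC6, 3 (7.69%) had a peak of the same region in at least 1 shHDAC6 list and 2 (5.13%), FGF1 among them, in all 3. Of the 9 lost with NextA, 2 had such a peak in at least 1 NextA list and 0 in all 3. Of the 38 gained with shHDAC6, 1 had one in at least 1 shCtrl list and 0 in all 3.

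The strongest FGF1 peak in NextA and Ctrl cells was another one. It lay at chr5:142644590-142645690, centred 52930 bp downstream of the first start, with its near edge 351 bp upstream of the fourth. Its percentile was 92.4, 94.0 and 96.4 in NextA lists and 96.1, 97.9 and 98.5 in Ctrl lists, with folds of 12.3, 11.1 and 11.9 in NextA and 14.2, 12.1 and 12.6 in Ctrl. The percentiles of the 2 groups overlapped, and the peak was in 3 of 3 lists of each. By percentile and by fold the NextA list stood below the Ctrl list of the same number in 3 of 3 pairs; these lists differ in length, and the difference was not tested.

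In the hairpin lists (shHDAC6 and shCtrl) the same region stood lower in its list or held no peak. It held a peak in shHDAC6 lists 1 and 3, at percentiles 13.3 and 80.2 (folds 4.17 and 7.5), and none in list 2. It held a peak in shCtrl lists 2 and 3, at percentiles 46.8 and 43.3 (folds 5.11 and 5.06), and none in list 1. All shHDAC6 and shCtrl percentiles stood below all those of NextA and Ctrl lists, which came from longer lists. Of the 139237 merged regions, 5.47% had a peak in all 6 lists without a hairpin at percentiles above every hairpin list, and 0.33% the reverse. A list without a peak counted as lower. The 5.47% thus include the 3.62% of regions with no peak in any hairpin list, and the 0.33% include the 0.0575% of the reverse kind.

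A region inside the gene, chr5:142597832-142598486, followed the same divide. It held a peak in 0 of 3 shHDAC6 and 0 of 3 shCtrl lists, against 3 of 3 NextA and 3 of 3 Ctrl lists. The percentiles were 76.1, 40.2 and 59.6 in NextA lists and 65.1, 11 and 38.3 in Ctrl lists. Of all merged regions, 3.62% were in all 6 lists without a hairpin and in no hairpin list, and 0.0575% were the reverse. When each list was reduced to its strongest 25878 peaks, the length of the shortest list, the region stayed in 0 shHDAC6 and 0 shCtrl lists, against 2 NextA lists and 1 Ctrl list. Over all merged regions that setting left 1.05% in all 6 lists without a hairpin and in no hairpin list. The hairpin lists were shorter, and the part of list length in this divide was not tested. Which cells or day separate the hairpin experiment from the inhibitor experiment is not given in the labels, so experiment and hairpin cannot be told apart.

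The same divide touched markers of the cell line. Of 8 genes with peaks expected in MDA-MB-231 cells, VIM (an intermediate filament of mesenchymal cells) and CAV1 (the coat protein of caveolae) had an ATAC peak at a start in all 12 lists. CD44 (a hyaluronan receptor), EGFR (the epidermal growth factor receptor) and KRT8 (a keratin) had one in 0 of 6 hairpin lists and 6 of 6 lists without a hairpin. KRT18 (a keratin), AXL (a receptor tyrosine kinase) and FOSL1 (an AP-1 subunit) had one in 3, 4 and 5 of 6 hairpin lists and in 6 of 6 lists without a hairpin. PolII peaks stood at EGFR in all 8 PolII lists, at CD44 in 6 (0 of the 2 shCtrl lists) and at KRT8 in 0. KRT8 was scored at 1 start and overlaps KRT18 in the gene table, so its counts describe that start only and not the whole gene. Of the genes of luminal cells and hormone receptors, CDH1, the epithelial cadherin, had an ATAC peak in 0 of 12 lists, ESR1 in 2 and PGR in 3, while FOXA1 had one in 9, GATA3 in 10 and ERBB2 in 12. Of leukocyte genes, PTPRC had one in 0 lists, CD3E in 5 and CD68 in 12. Of neuronal genes, SNAP25 had one in 7 lists, GAP43 in 8, RBFOX3 in 10 and SYT1 in 12. PolII was listed at ERBB2, FOXA1 and CD68 in all 8 lists. An ATAC peak at a start was therefore listed also at genes of other cell types, and the marker lists do not check the identity of the cells.

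The region at chr5:142655242-142656253, centred 42322.5 bp downstream of the first start, was in 3 of 3 NextA and 3 of 3 Ctrl lists, and in 1 of 3 shHDAC6 and 3 of 3 shCtrl lists. The percentiles were 53.9, 26.7 and 58.8 in NextA lists and 77.4, 31.3 and 63.3 in Ctrl lists. The shHDAC6 peak stood at 88.5, and the shCtrl peaks at 73.3, 38.5 and 90.7. The 1 shHDAC6 peak was thus within the shCtrl range, and the other 2 shHDAC6 lists had none.

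A further region, chr5:142610671-142611588, was in 2 NextA lists and 1 Ctrl list, and in 2 shHDAC6 lists and 1 shCtrl list. Its percentiles were 55.3 and 72.7 in NextA lists and 6.83 in the Ctrl list, and 45.7 and 44.7 in shHDAC6 lists and 48.5 in the shCtrl list. The remaining 9 regions were in 1 to 3 lists each. The third start had an ATAC peak within 1 kb in 1 list, Ctrl list 1, at percentile 8.75.

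**Figure D4:**
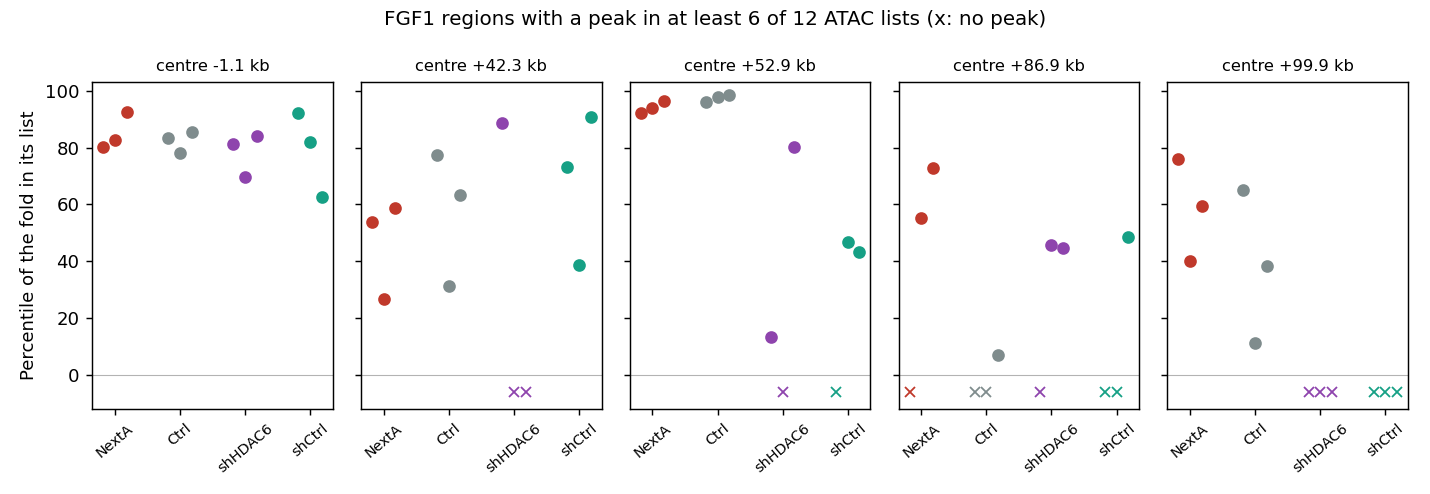
Place of each peak by the authors' fold, as a percentile of its list, for the 5 FGF1 regions present in at least 6 of 12 ATAC lists, by group, with 1 point per list and a cross below 0 where the list had no peak; panels give the distance of the region's centre from the first start (kb, positive downstream). The peak before the first start (leftmost) holds 12 points between 62.5 and 92.7, and the peak before the fourth start (the third panel) stands at 92.4 to 98.5 in NextA and Ctrl lists and lower in both hairpin groups.

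Among 8 PolII lists, 1 interval was listed in the FGF1 locus, in Ctrl list 1 at chr5:142680991-142681185 (195 bp), with a fold of 3.66 and a −log10 q of 2.78. It overlapped an ATAC region of NextA lists 1 and 3 and Ctrl list 1 and lay at no start. PolII covered 0 and 0 bp of the locus in NextA lists, against 195 and 0 bp in Ctrl lists. It covered 0 bp in each shHDAC6 and each shCtrl list, which fixed the outcome of a test between those groups. An exact permutation test, two-sided, gave p = 1 for NextA (0 against 97.5 ± 138 bp, mean and SD, n = 2 each) and p = 1 for shHDAC6; 2 against 2 lists cannot go below p = 0.33. Without Ctrl list 1 the NextA difference was 0 bp, and without Ctrl list 2 it was -195 bp. The median protein-coding locus, also with 10 kb on each side, held 1.68 to 2.15 PolII intervals per 100 kb in these lists, against 0 at FGF1 in 7 of 8 lists and 0.794 in Ctrl list 1. In those 7 lists 19.5% to 29.3% of protein-coding loci also held no PolII interval.

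Histone H3 acetylation was listed at FGF1 in the second replicate only. NextA list 2 held 7 intervals that covered 4712 bp, and NextA list 1 held none. Ctrl list 2 held 1 interval of 598 bp, and Ctrl list 1 held none. One NextA interval, chr5:142643764-142644607, covered the fourth start printed above, with a fold of 2.32 and a −log10 q of 0.121. Of the ATAC intervals before that start it met only the edge of that in NextA list 2, which begins at base 142644590. Another NextA interval, chr5:142645243-142645607, overlapped the ATAC peak in every list that held it, with a fold of 2.2 and a −log10 q of 0.0319. The exact permutation test gave p = 1 for covered bases (2356 ± 3332 bp in NextA and 299 ± 423 bp in Ctrl, SD, n = 2 each). Without NextA list 2 the difference turned to -299 bp, and without NextA list 1 it was 4413 bp. Both second lists went down to a q of 1, and NextA list 2 was the longest, with 61186 peaks against 41411 in Ctrl list 2. Per 100 kb, NextA list 2 had 5.56 intervals at FGF1 and 2.4 at the median locus.

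HDAC6 ChIP intervals at FGF1 all had a −log10 q of at most 0.0711. The 2 NextA lists held none. The shHDAC6 lists held 3 intervals (1068 bp) and 2 intervals (936 bp). Of the Ctrl lists, that made with the CST antibody held none and that made with the Novus antibody held 3 intervals covering 1847 bp; both CUT&Tag Ctrl lists held none. The shHDAC6 lists, both made with the Novus antibody, shared 1 interval, at chr5:142633827-142634155 in list 1 and chr5:142633743-142634259 in list 2, inside the gene and overlapping no ATAC region. Its −log10 q was 0.0711 in list 1 and 0 in list 2, and its percentile 75.9 and 2.32. Per 100 kb, the shHDAC6 lists had 2.38 and 1.59 intervals at FGF1 and 0 at the median locus. In them 87.9% and 89.7% of protein-coding loci held fewer per 100 kb. The Novus Ctrl list had 2.38 at FGF1 and 2.14 at the median locus, and the CST Ctrl list 0 and 2.04. The CUT&Tag lists had 0 at FGF1, and 0.798 and 1.57 at the median locus.

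For NextA against Ctrl the exact permutation test gave p = 1 on covered bases (0 against 924 ± 1306 bp, mean and SD, n = 2 each). Without the Novus Ctrl list the difference was 0 bp, and without the CST list it was -1847 bp. shHDAC6 had 1 Ctrl list of the same antibody, so that contrast has no replicate check. The NextA Novus list held 235 peaks in all, and the names of its peaks begin as those of shCtrl PolII lists do. None of the 17 ChIP intervals at the locus reached a −log10 q of 5, and the PolII interval was the 1 above a −log10 q of 1.

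The wider FGF pathway was read from 66 genes, all found in the gene table, with the window of 1 kb at the outermost start. That start was the end of the gene interval where transcription begins, and could differ from the annotated starts. For a gene without an annotated strand, the end of the gene marked in more lists was used. In ATAC, FGF1 was the 1 member gained with NextA and 0 were lost. With shHDAC6, FGF1 was the 1 member lost and 0 were gained. With any annotated start in place of the outermost, 0 of 66 were gained or lost in either comparison. FGF1 itself then had a peak in 3 NextA and 3 Ctrl lists, and in 2 shHDAC6 and 3 shCtrl lists.

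At the outermost start, 40.8% of all 19974 genes had an ATAC peak in all 12 lists and 27.6% in none, and 51.5% had a PolII peak in all 8 lists and 30.3% in none. Among the 18 secreted ligands, 2 (11.1%) had an ATAC peak in all 12 lists and 4 (22.2%) in none. PolII was at 2 ligands (11.1%) in all 8 lists and at 5 (27.8%), FGF1 among them, in none. FGF18, a ligand of bone and lung development, was the 1 member gained in PolII with shHDAC6, where 0.821% of all promoters were gained and 0.596% lost. It had a PolII peak in 2 of 2 shHDAC6 lists, at a mean percentile of 2.73, and in 0 of 2 shCtrl lists. Those peaks were thus among the weakest of their lists. With NextA, 0 of 66 members were gained or lost in PolII, against 0.285% and 0.0451% of all promoters. The 3 calls in ATAC and PolII became 5 without ATAC NextA list 1, and 6 without ATAC Ctrl list 3 or without PolII Ctrl list 1.

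Of 7 receptors and co-receptors, 3 (42.9%) had an ATAC peak in all 12 lists and 2 (28.6%) in none. With any annotated start, 2 of 7 had one in all 12 lists, and FGFRL1, one of the 3, had one in 4 lists. At the outermost start, PolII stood at 4 of the 7 (57.1%) in all 8 lists and at 2 (28.6%) in none. Of 14 genes for FGF binding, release and uptake, 7 (50%) had an ATAC peak in all 12 lists, and 12 (85.7%) had PolII in all 8. S100A13 and SYT1, which take part in the release of FGF1, were among both. All 7 adaptors, FRS2 and GRB2 among them, had ATAC peaks in all 12 lists and PolII peaks in all 8. Of 16 feedback genes and targets, 10 (62.5%) had ATAC peaks in all 12 lists and 15 (93.8%) had PolII in all 8. These shares stand beside those over all genes without a test. With any annotated start, 8 of the 14 binding, release and uptake genes had ATAC peaks in all 12 lists. So did 11 of the 16 feedback genes and targets. Of 4 intracellular homologues, 0 had an ATAC peak in all 12 lists and 0 had PolII in all 8.

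Pan-acetyl peaks were gained with NextA at 16 of 66 members (24.2%) and lost at 0, against 19.6% and 0% of all promoters. HDAC6 ChIP peaks were lost with NextA at 15 of 66 (22.7%) and gained at 0, against 13.5% and 0%. The HDAC6 lists held 3256 and 235 peaks in NextA and 28590 and 63833 in Ctrl. The pan-acetyl lists held 28473 and 61186 peaks in NextA and 1418 and 41411 in Ctrl. The shortest of these lists can hold a peak at few promoters, and the part of list length in both kinds of call was not tested. The shares were not tested against each other, and FGF1 was in neither set. The genes named next were chosen after their values were seen. SPRY1 and SPRY2, inhibitors of the pathway, DUSP6, a phosphatase of MAP kinase, and SPHK1, a lipid kinase, were in both sets. Equal list length left 0 of either kind, but it cut each pan-acetyl list to 1418 peaks and each HDAC6 list to 235. So few peaks could hardly leave a call among 66 promoters, so this setting says nothing about stability. Without NextA list 2 there were 27 pan-acetyl gains, and without the Novus Ctrl list 38 HDAC6 losses.

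**Figure D5:**
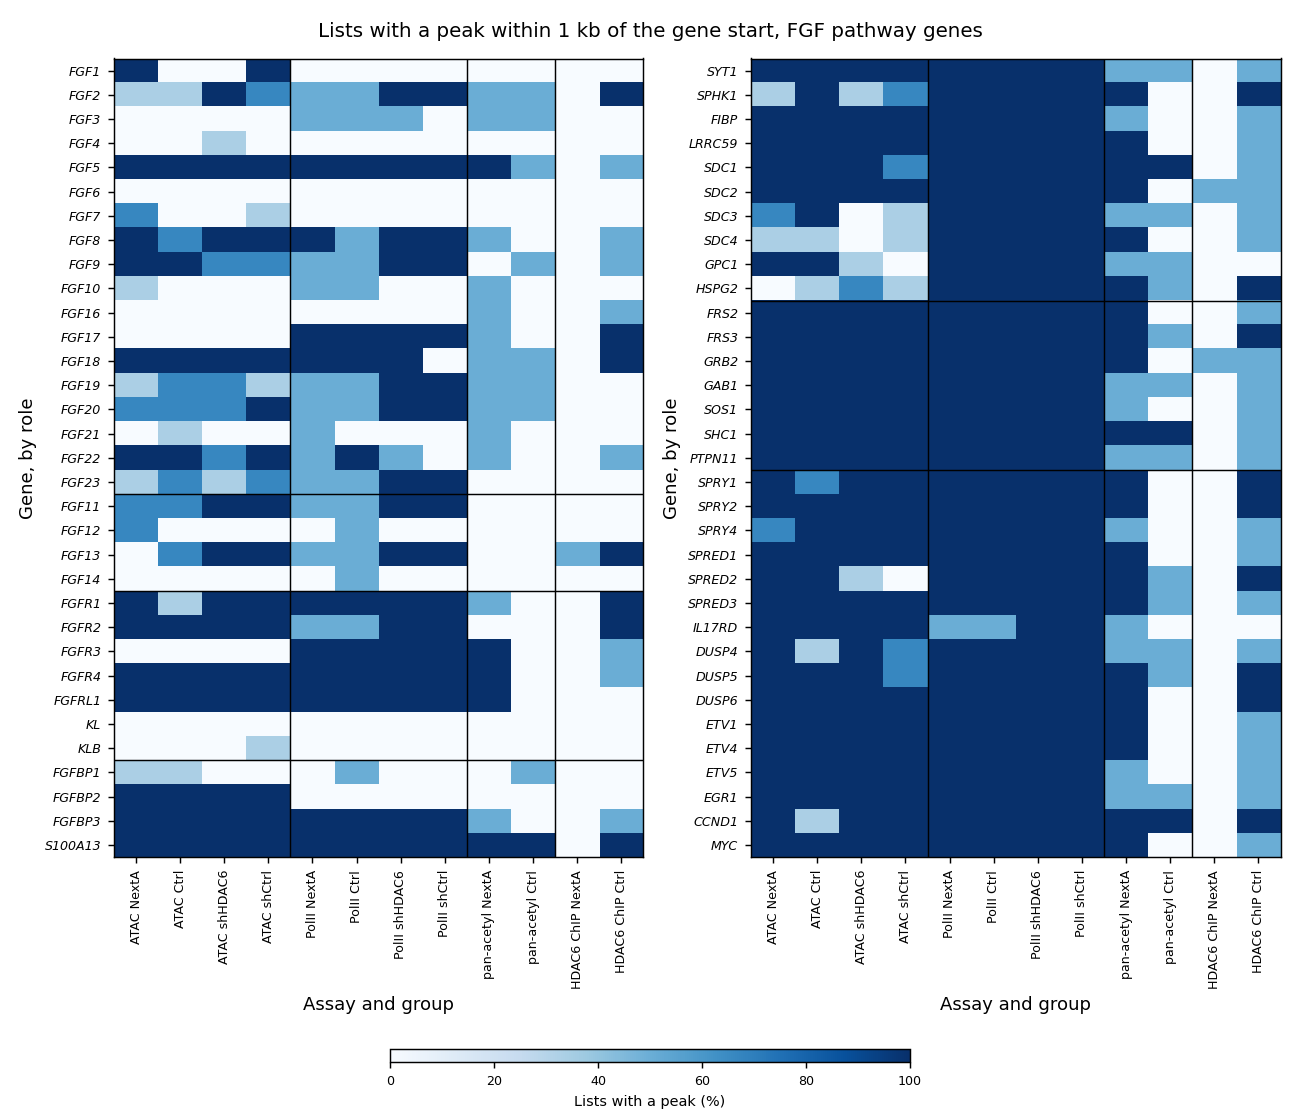
Percent of lists with a peak within 1 kb of the gene start for 66 FGF pathway genes (rows, ordered and ruled off by role: ligands, intracellular homologues, receptors and co-receptors, FGF binding, release and uptake, adaptors, feedback and targets), by assay and group (columns; 3 ATAC lists and 2 lists of each other assay). FGF1, in the top left row, is at 100% in ATAC NextA and shCtrl and at 0% in the other columns.

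Genes were also ranked by how many of the 12 ATAC lists matched FGF1 in having or lacking a peak in the 1 kb window. No gene matched in all 12, 2 matched in 11, 13 in 10 and 109 in 9. ANO4, of a family of calcium-activated membrane proteins, and ZBTB7A, a zinc finger repressor, matched in 11, with mean percentiles of 17.1 and 22.7 where they had a peak. They also matched FGF1, which had no peak there in any other assay, in 11 and 7 of the other 20 lists. GH2, a placental growth hormone gene, MRE11, a DNA repair nuclease, and MC3R, a melanocortin receptor, matched in 10 of the 12, and in 20, 19 and 19 of the other 20. C11orf97, with 10 and 19, was left out of this ranking because its window held the same interval as that of MRE11.

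Scored at any annotated start, the neighbours of FGF1 differed from it in PolII. SPRY4, an inhibitor of the pathway, NDFIP1, an adaptor of ubiquitin ligases, and GNPDA1, an enzyme of hexosamine metabolism, lie at lower coordinates. ARHGAP26, a GTPase-activating protein, NR3C1, the glucocorticoid receptor, and LOC128966704 lie at higher coordinates. All 6 had a PolII peak at a start in all 8 lists, against 0 of 8 at FGF1. At its outermost start alone, NR3C1 had PolII in 0 of 8 lists, as FGF1 did, and an ATAC peak in 1 NextA list and 1 Ctrl list. LOC128966704 lies inside NR3C1 and had the same PolII percentiles at any start, so these 2 neighbours are not independent. In ATAC at any start, 4 of the 6 had a peak in all 12 lists. SPRY4 had one in 2 of 3 NextA and 3 of 3 Ctrl lists, and in 3 of 3 shHDAC6 and 3 of 3 shCtrl lists. GNPDA1 had one in 0 of 3 NextA and 2 of 3 Ctrl lists, and in 3 of 3 shHDAC6 and 2 of 3 shCtrl lists.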

How the data were processed

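Peak lists of 32 MDA-MB-231 samples were used as deposited, 1 list per sample; groups came from the sample labels. Per the submitters' processing notes, which give no roles, the tools were MACS2 2.2.7.1, Bowtie2 2.4.4, ChIPseeker 1.28.2, SAMtools 1.13, Trim Galore 0.6.7 and deepTools 3.5.1, and the build was hg38. Each deposited line holds an interval, the caller's score, a linear fold ratio of the peak over its background, and −log10 of p and of q, all made by the authors; the ATAC lists also hold the deposited summit position. The score is 10 times −log10 p or −log10 q, rounded. Some lists had complete peak numbering and followed q, among them ATAC NextA 1 and Ctrl 1; the others followed p and had gaps, with 21.2% and 21.3% of the numbering kept in ATAC NextA lists 2 and 3 and 3.92% and 3.90% in Ctrl lists 2 and 3, 6.77% to 9.71% in shHDAC6 lists and 8.06% to 8.80% in shCtrl lists. The filter behind the gaps is not given in the sources used here.

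Lines with the same interval were merged, keeping the highest fold, and chromosomes 1 to 22 and X were kept. Presence meant an overlap of at least 1 bp. Gained meant a peak in every list of the first named group and in no list of the second, and lost the reverse. Gene positions and starts were those of RefSeq (GRCh38.p14); strand was known for 15813 genes and unknown for 4161. Exons and introns were not analysed here. Covered bases were compared by exact permutation over lists. The p is the share of relabelings of the lists that give a mean difference at least as large. It refers only to these samples, and differences between their lists may be technical. The gene and all gene lists were chosen with earlier results of these data known. The rule for named genes took FGF1, pathway members gained or lost in ATAC or PolII, the 3 nearest genes on each side, and the 5 genes most like FGF1, leaving out a gene that shares its interval with one already taken. Same-numbered NextA and Ctrl ATAC lists deviated together (correlations of 0.53, 0.21 and 0.19 over 11134 regions in all 12 lists), but so did NextA list 2 with Ctrl list 3 and NextA list 3 with Ctrl list 2 (0.20 each): the values set list 1 apart and do not tell list 2 from list 3. The numbers were used as pairs in the replicate block on that footing; for shHDAC6 and shCtrl the correlations were 0.016, -0.0087 and 0.00060. Scripts ran in Python 3.11.15 with numpy 2.4.6, pandas 2.3.3 and matplotlib 3.10.9, and were tested on simulated lists.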

Additional observations from a re-analysis of the deposited data

Results flagged for a closer look

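In the 1 kb window at the first FGF1 start, the share of ATAC lists with a peak differed by 100 percentage points between NextA and Ctrl and by -100 percentage points between shHDAC6 and shCtrl. The 2 differences have opposite signs, which the rule that chose the gene required. By the near edge of the main peak not every list followed: in shCtrl list 1 it stood 1045 bp upstream, further than in any shHDAC6 list. The difference between the 2 comparisons was not tested, since these values chose the gene. The peak itself was listed in all 12 lists.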

How the results depend on the processing

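Presence of the peak before the first start, as a merged region, differed by 0 percentage points in both comparisons; requiring 50% coverage of the region gave 33.3 with NextA and -33.3 with shHDAC6. For the 1 kb window the following settings were chosen after seeing the data. The NextA difference of 100 became 33.3 with an overlap of 200 bp or a window of 900 bp on each side, and 0 with windows of 500, 1500, 2000 or 3000 bp or any annotated start. The shHDAC6 difference of -100 became -66.7 at a −log10 q of at least 5, -33.3 with any annotated start, and 0 with windows of 500, 1500, 2000 or 3000 bp. With same-numbered lists as pairs (the replicate block) these stayed at 100 and -100, and 0 and 0 for the region, and every covered-base test gave p = 1 (exact sign-flip test, which with 2 pairs cannot go below 0.5 and so says nothing about stability).

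For covered bases, the PolII difference with NextA (-97.5 bp) became 0 at a −log10 q of at least 5. The PolII difference with shHDAC6 (0 bp) became -617 bp with 50 kb on each side of the gene (p = 0.33, exact permutation test). The pan-acetyl (2057 bp) and HDAC6 (-924 bp) differences became 0 at that q and at equal list length. Equal length cut each pan-acetyl list to 1418 peaks and each HDAC6 list to 235, too few for this setting to show stability at 1 locus or 66 promoters. Of the 66 pathway genes, 3 calls in ATAC or PolII became 5 at equal list length and 1 with windows of 500 bp or 3 kb; the 16 pan-acetyl gains and 15 HDAC6 losses each became 0 at that q and at equal list length. Leaving out 1 list at a time gave 100 to 100 and -100 to -100 for the window, 0 to 0 for the region, -195 to 0 bp for PolII with NextA, 0 to 0 bp with shHDAC6, -299 bp (without NextA list 2, a reversal) to 4413 bp for pan-acetyl, and -1847 to 0 bp for HDAC6. It gave 3 to 6 pathway calls, 17 to 27 pan-acetyl gains and 15 to 38 HDAC6 losses. The causes were not tested. Without read counts, lists of 25878 to 79666 ATAC peaks limit what a missing peak can show.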

Other observations

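The peak before the first FGF1 start ended at the same base, 142699439 on chromosome 5, in 5 of 12 ATAC lists. These were NextA list 3, Ctrl lists 2 and 3, shHDAC6 list 3 and shCtrl list 3. Of 11134 merged regions with a peak in all 12 lists, 6 (0.0539%) had at least as many lists sharing an end base, and 15 (0.135%) at least as many sharing a start or an end base. No 2 lists shared the near edge of the FGF1 peak.

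Between shCtrl and Ctrl, 2 of 66 FGF pathway members (3.03%) were lost in ATAC at the outermost start, and FGF1 (1.52%) was gained. Of all promoters 1.43% were lost and 0.29% gained. GPC1, a heparan sulfate proteoglycan, and SPRED2, an inhibitor of the MAP kinase pathway, each had a peak in 0 of 3 shCtrl and 3 of 3 Ctrl lists, and in 1 of 3 shHDAC6 and 3 of 3 NextA lists. With any annotated start, GPC1 kept these counts. SPRED2 then had a peak in 3 of 3 shCtrl and 3 of 3 Ctrl lists, and in 2 of 3 shHDAC6 and 3 of 3 NextA lists.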
